A study of Homo sapiens with 6 samples.

Results

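Aldo-keto reductases were examined in SUM159 oncospheres. The family was given as AKR1A1, AKR1B1, AKR1B10, AKR1C1, AKR1C2, AKR1C3 and AKR7A2, and its probe sets were those annotated to exactly 1 of these 7 symbols. This yielded 12 of 54613 probe sets, which stand for 5 of 19775 genes. AKR1A1 and AKR1B1 had 0 probe sets in the annotation used and were not analysed here. SUM159 is an established human breast cancer cell line. The tested cells carried the pLVX-puro lentiviral vector with a synthesized human SCGB3A1 cDNA, which encodes a small secreted protein, and the control cells carried the same vector without an insert. Both groups passed through 7 days of puromycin at 2 μg/ml and then 5 days as oncospheres, floating clusters on ultra-low attachment plates, seeded at 12500 cells/ml. Each group had 3 arrays, which the labels call biological replicates. Nothing states whether these came from separate transductions, so p-values measure only the spread between these samples.

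Aldo-keto reductases use NADPH to reduce aldehydes and ketones to alcohols. AKR1B10 reduces retinaldehyde and lipid-derived aldehydes, the AKR1C enzymes act on steroid hormones and prostaglandins, and AKR7A2 clears succinic semialdehyde and aflatoxin aldehydes. In human cells several of these genes are targets of NRF2, a transcription factor that is released from its inhibitor KEAP1 under oxidative or electrophilic stress.

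The members were chosen by measured values of these same arrays, because AKR1B10 was among the probe sets called in this comparison, and the remaining members were listed with those results known. Differences between the groups are therefore given as descriptions. The values are log2 expression after robust multiarray average (RMA) normalization. Each probe set binds its target with its own efficiency, so genes are not ranked by level, and a level is set against all probe sets only as a rough guide to bright and dim.

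The arrays were alike, with correlations of 0.989 to 0.993 between control replicate 2 and the others and 0.993 to 0.996 among the rest. SCGB3A1 itself, whose only probe set is 230378_at, read 6.60, 6.92 and 6.71 in the arrays labelled SCGB3A1, against 6.80, 6.89 and 7.05 in control. These ranges overlapped and the log2 fold change was -0.17 ± 0.10 (SE; limma, adjusted p = 0.83). Whether this probe set covers the cDNA in the vector is unknown here, so it cannot settle whether the labels hold. The methods state that expression from the vectors was established by quantitative PCR after selection, with values not analysed here. Every direction holds for the arrays as labelled. The 6 markers expected in this mesenchymal-like line, VIM among them, had mean levels between 9.60 and 14.40, and the 4 expected to be low had mean levels between 6.19 and 7.07, where the median of all probe sets was 6.91. By 1 probe set per gene, all 6 expected markers were negative in the comparison, and 3 had every array labelled SCGB3A1 below control. ZEB1, a mesenchymal transcription factor, differed by -0.25, the growth factor receptor EGFR by -0.24 and the integrin ITGB1 by -0.07. Of their 42 probe sets 15 were positive and 27 negative, where 51.0% of all probe sets were positive. Among the 42, 0 passed in limma and 5 had an unadjusted p under 0.05, against 6.2% of all probe sets. For 2 all arrays labelled SCGB3A1 lay above control and for 6 all below, against 5.95% and 5.25% of all probe sets. Of 10 markers of other cells, 9 were measured, at mean levels of 6.11 to 13.54. Of their 31 probe sets 0 passed in limma and 5 had an unadjusted p under 0.05, against 6.2% of all probe sets. For 4 all arrays labelled SCGB3A1 lay above control and for 4 all below, against 5.95% and 5.25% of all probe sets. By 1 probe set per gene, 3 of the 9 genes measured were positive and 6 negative, where 51.0% of all probe sets were positive. COL1A1, a fibroblast collagen with a mean level of 13.54, differed by -0.21, with all arrays labelled SCGB3A1 below control. PDGFRA, the other fibroblast marker, had a mean level of 10.57 and differed by 0.03. The leukocyte marker CD3E differed by 0.13, with all arrays labelled SCGB3A1 above control. PTPRC, another leukocyte marker, had a mean level of 7.75 and differed by -0.06, with overlapping groups. The part of these markers in the results for the members was not tested.

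Of the 12 member probe sets, 1 passed an adjusted p of 0.05, that of AKR1B10, and it was higher. Over all probe sets, 0.0183% passed, 0.0165% higher and 0.00183% lower. By the thresholds of the study signature (log2 fold change beyond 0.5, adjusted p under 0.25) AKR1B10 was again the 1 member that passed, where 0.0256% of all probe sets passed higher and 0.00549% lower. The fold change was positive for 10 of the 12, against 51.0% of all probe sets. The arrays labelled SCGB3A1 all lay above the controls for 6 of the 12 and all below for 0, where 5.95% and 5.25% of all probe sets did. The median log2 fold change was 0.15 over the 12, against 0.0026 over all probe sets. The 12 do not count independently, since several read the same transcripts. Without the 4 whose identifier ends in _x_at, a suffix that marks probes matching more than 1 gene, the median was 0.080.

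**Figure D1:**
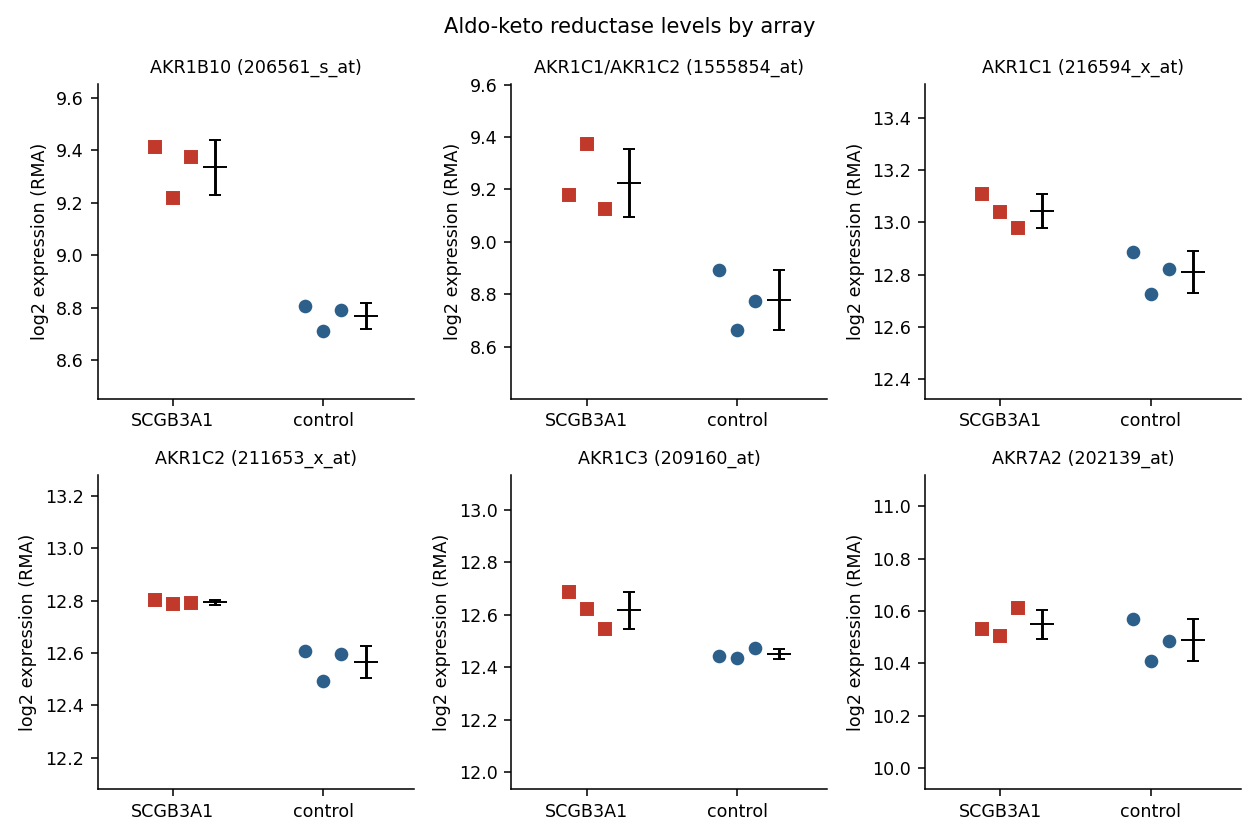
Log2 expression (vertical axes, each spanning 1.2 units) of 6 probe sets in each array labelled SCGB3A1 (red squares) and each control array (blue circles), with the group mean and SD (bars, n = 3). Besides the shared AKR1C1/AKR1C2 probe set, each gene is shown by its probe set with the smallest p in limma. The groups are separated for AKR1B10, the shared probe set and the AKR1C probe sets shown, and overlap for AKR7A2. They also overlap for AKR1C1 204151_x_at, 1555856_s_at and 1555855_at and AKR1C2 244266_at, which are not shown.

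AKR1B10 had 1 probe set, 206561_s_at. It read 9.41, 9.22 and 9.38 in the arrays labelled SCGB3A1, against 8.80, 8.71 and 8.79 in control. The lowest array labelled SCGB3A1 stood 0.41 above the highest control. The means were 9.33 ± 0.10 in the arrays labelled SCGB3A1 and 8.77 ± 0.05 in control (SD, n = 3 each), which is a 1.48-fold rise with a 95% interval of 1.32 to 1.66. The log2 fold change was 0.57 ± 0.08 (SE; limma, adjusted p = 0.047), and it was 11th in size among the rises of 54613 probe sets. Its size changed little with 1 array fewer, but it no longer passed. Without replicates 1, 2 and 3 labelled SCGB3A1 it was 0.53, 0.62 and 0.55 (limma, adjusted p = 0.36, 0.11 and 0.20), and without control replicates 1, 2 and 3 it was 0.58, 0.54 and 0.58 (adjusted p = 0.18, 0.14 and 0.20). Nor did it pass when dim probe sets were left out of the fit (adjusted p = 0.061). AKR1B10 lies beside AKR1B15, a close paralog with 0 probe sets of its own in the annotation used, and what part AKR1B15 has in this signal was not tested.

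AKR1C1, AKR1C2 and AKR1C3 lie next to each other on chromosome 10. They show how alike these paralogs are, and for that reason their RefSeq promoters (GRCh38.p14, 250 bases before to 50 after the start) are given. Promoters were found for 6 of the 7 members, and AKR1B10 was the member without one. AKR1C1 is at chr10:4963165-4963464 on the plus strand, AKR1C2 at chr10:5003808-5004107 on the minus strand, and the second of the AKR1C3 starts at chr10:5094164-5094463 on the plus strand. Capitals mark the CCAAT box, found on the minus strand as ATTGG.
AKR1C1: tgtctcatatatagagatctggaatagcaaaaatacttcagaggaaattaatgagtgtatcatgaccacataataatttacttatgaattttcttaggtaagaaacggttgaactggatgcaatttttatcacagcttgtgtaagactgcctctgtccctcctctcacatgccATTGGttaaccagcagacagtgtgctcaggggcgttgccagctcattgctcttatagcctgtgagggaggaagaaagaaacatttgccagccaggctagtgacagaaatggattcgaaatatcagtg
AKR1C2: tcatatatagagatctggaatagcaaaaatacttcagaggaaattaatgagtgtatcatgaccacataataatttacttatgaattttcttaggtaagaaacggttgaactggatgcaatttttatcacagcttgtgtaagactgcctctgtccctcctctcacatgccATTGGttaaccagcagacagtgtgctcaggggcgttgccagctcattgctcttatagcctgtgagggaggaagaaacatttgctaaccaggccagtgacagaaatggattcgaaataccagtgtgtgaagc
AKR1C3: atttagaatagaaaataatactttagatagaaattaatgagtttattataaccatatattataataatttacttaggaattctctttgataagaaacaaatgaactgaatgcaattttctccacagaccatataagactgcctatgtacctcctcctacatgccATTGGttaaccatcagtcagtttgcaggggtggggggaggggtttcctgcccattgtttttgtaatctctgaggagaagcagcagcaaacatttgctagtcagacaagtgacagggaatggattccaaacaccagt

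The AKR1C1 and AKR1C2 windows shared 288 of 292 aligned bases (98.6%), and the AKR1C3 window shared 79.5% with AKR1C1 and 80.6% with AKR1C2. The CCAAT box stood at positions -77, -81 and -86 from the start in AKR1C1, AKR1C2 and AKR1C3, and 34.6% of 35116 promoter windows held one on either strand. The windows printed for these genes had no match to TGACNNNGC, the core of the antioxidant response element that NRF2 binds, on either strand. They also had no match to the AP-1 site TGANTCA, which can overlap that core. Sequence outside the windows was not searched, so sites further from the start were not tested. Of all windows, 13.3% held the first and 7.71% the second.

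AKR1C1, which inactivates progesterone, had 5 probe sets. Probe set 216594_x_at read 13.11, 13.04 and 12.98 in the arrays labelled SCGB3A1, against 12.89, 12.72 and 12.82 in control, with no overlap between the groups (log2 fold change 0.23, 95% interval 0.07 to 0.40). Probe set 204151_x_at read 13.31, 13.22 and 13.00 in the arrays labelled SCGB3A1, against 13.13, 12.95 and 13.06 in control. Here replicate 3 labelled SCGB3A1 fell within the controls, and the difference was 0.13 (-0.07 to 0.32). It was 0.06 without replicate 1 labelled SCGB3A1 and 0.21 without replicate 3. Probe set 217626_at read 8.19, 7.90 and 7.87 in the arrays labelled SCGB3A1, against 7.80, 7.82 and 7.72 in control (0.21, 0.01 to 0.40). The groups were separated by 0.04 only, and without replicate 1 labelled SCGB3A1 the difference was 0.11. The remaining probe sets of AKR1C1, 1555856_s_at and 1555855_at, had mean levels of 6.71 and 6.43, below the median of all probe sets, and differences of -0.01 and -0.10.

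AKR1C2, which inactivates the androgen dihydrotestosterone, had 3 probe sets. Probe set 211653_x_at read 12.80, 12.79 and 12.79 in the arrays labelled SCGB3A1, against 12.61, 12.49 and 12.60 in control. The groups did not overlap, the difference was 0.23 (95% interval 0.07 to 0.38), and the SD was 0.01 in the arrays labelled SCGB3A1 and 0.06 in control. Probe set 209699_x_at read 13.03, 12.99 and 12.90 in the arrays labelled SCGB3A1, against 12.80, 12.85 and 12.70 in control (0.19, 0.03 to 0.36). It too showed no overlap, with a gap of 0.05. The dim probe set 244266_at, with a mean level of 6.35, differed by 0.10 (-0.09 to 0.28) and overlapped.

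AKR1C3, which makes testosterone and prostaglandin F, had 1 probe set, 209160_at. It read 12.69, 12.62 and 12.54 in the arrays labelled SCGB3A1, against 12.44, 12.44 and 12.47 in control, with a gap of 0.07 between the groups. The log2 fold change was 0.17 (95% interval 0.01 to 0.32), which corresponds to 1.12-fold.

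Probe set 1555854_at is annotated to both AKR1C1 and AKR1C2 and so belongs to no single member. It read 9.18, 9.37 and 9.12 in the arrays labelled SCGB3A1, against 8.89, 8.66 and 8.77 in control. Every array labelled SCGB3A1 exceeded every control by at least 0.23. The means were 9.23 ± 0.13 in the arrays labelled SCGB3A1 and 8.78 ± 0.11 in control (SD, n = 3 each), a 1.36-fold difference (95% interval 1.19 to 1.56), which did not pass over all probe sets (log2 fold change 0.45 ± 0.09 SE; limma, adjusted p = 0.31). With 1 array left out it was 0.38 to 0.51. The bright _x_at probe sets of the same genes, at levels above 99% of all probe sets, showed differences of 0.13 to 0.23.

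Across the AKR1C genes, 5 of the 6 probe sets above the median level had all arrays labelled SCGB3A1 above control, and 0 of the 3 below it, where 5.95% of all probe sets did. For 0 of the 9 were all below, where 5.25% were. None of these 9 passed in limma (smallest adjusted p = 0.72), and 5 had an unadjusted p under 0.05, where 6.2% of all probe sets did. Taken relative to its own control mean, the median of the 6 brighter probe sets was 0.25, 0.19 and 0.11 in replicates 1, 2 and 3 labelled SCGB3A1, against 0.03, -0.04 and 0.01 in control replicates 1, 2 and 3. Replicate 3 labelled SCGB3A1 was thus nearest to the controls, with single probe sets between -0.05 and 0.23. In these bulk samples, more RNA per cell and more cells that express a gene cannot be told apart. AKR1C1 and AKR1C2 cannot be told apart by _x_at probe sets.

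**Figure D2:**
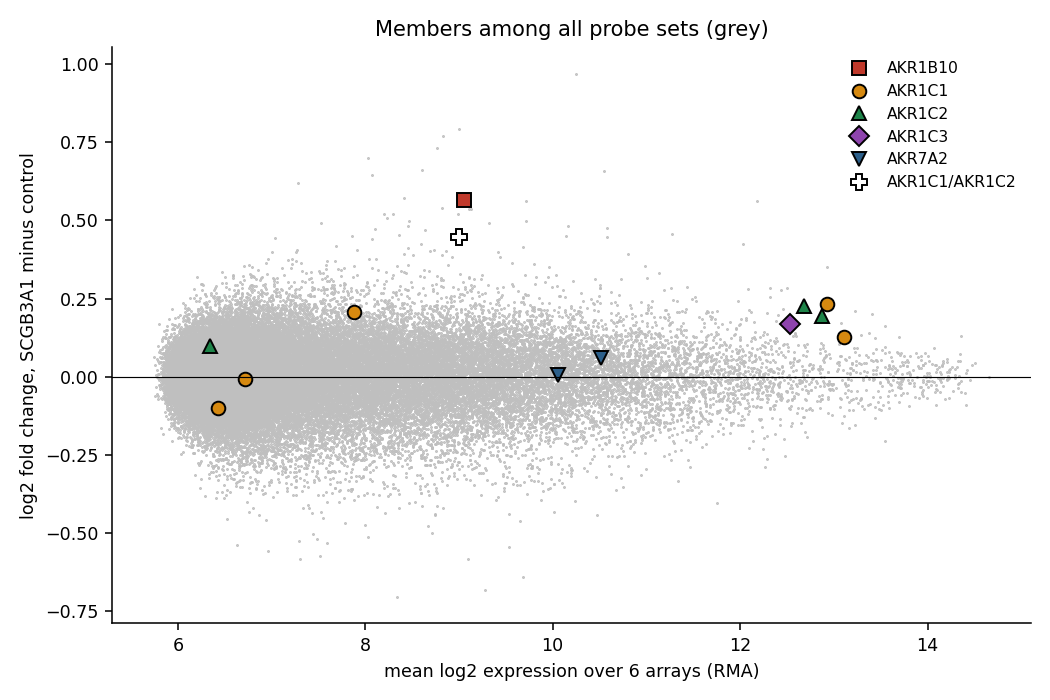
Log2 fold change, arrays labelled SCGB3A1 minus control (vertical axis), against the mean log2 level over the 6 arrays (horizontal axis) for all 54613 probe sets (grey points) and the members (symbols). AKR1B10 stands at 0.57 and the probe set shared by AKR1C1 and AKR1C2 at 0.45, while 5 AKR1C probe sets lie between 0.13 and 0.23 at levels above 12.

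AKR7A2 had 2 probe sets, and the groups overlapped in both. Probe set 202139_at read 10.53, 10.51 and 10.61 in the arrays labelled SCGB3A1, against 10.57, 10.41 and 10.49 in control (log2 fold change 0.06, 95% interval -0.10 to 0.22). Probe set 214259_s_at read 10.06, 10.00 and 10.13 in the arrays labelled SCGB3A1, against 9.96, 10.12 and 10.10 in control (0.00, -0.16 to 0.17). The wider rise these intervals leave room for is 1.17-fold. Its promoter is shown because AKR7A2 was the only member, of the 6 with a window, to hold the core TGACNNNGC (capitals, 3 matches, at positions -167, -156 and -95, the first on the minus strand). It is at chr1:19312097-19312396 on the minus strand.
AKR7A2: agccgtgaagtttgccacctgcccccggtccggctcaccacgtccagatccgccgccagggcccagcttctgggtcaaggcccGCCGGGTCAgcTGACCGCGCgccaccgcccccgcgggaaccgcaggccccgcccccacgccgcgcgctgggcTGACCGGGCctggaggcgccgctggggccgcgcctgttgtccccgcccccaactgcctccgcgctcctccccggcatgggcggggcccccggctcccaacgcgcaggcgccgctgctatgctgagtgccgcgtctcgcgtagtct

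**Figure D3:**
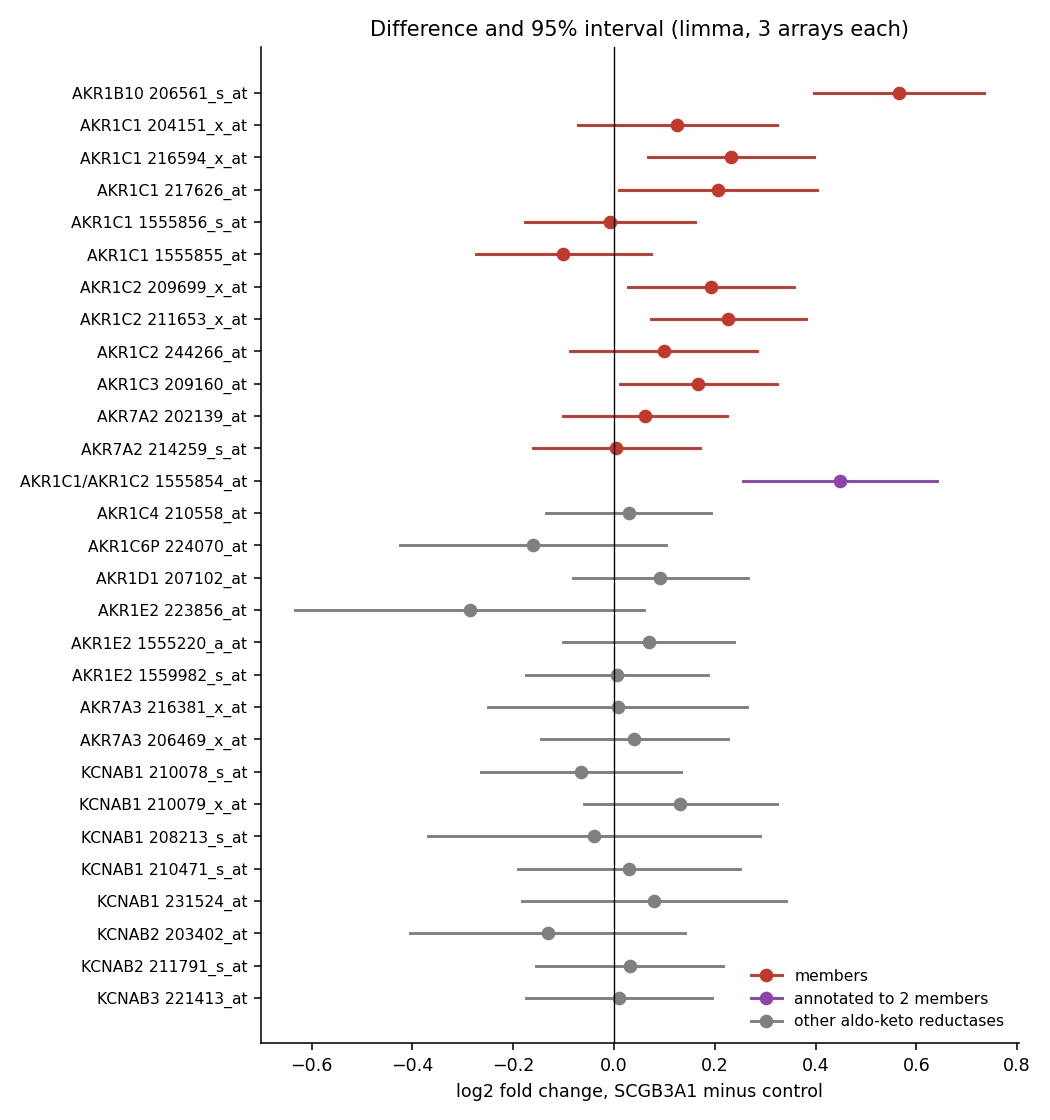
Log2 fold change, arrays labelled SCGB3A1 minus control, with 95% interval (horizontal axis; limma, n = 3 each) for each member probe set (red), the probe set of AKR1C1 and AKR1C2 (purple) and other aldo-keto reductases (grey). The intervals of AKR1B10, the shared probe set and 5 AKR1C probe sets lie above 0.

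Of 10 other aldo-keto reductases listed, 7 had a probe set. With AKR1C6P, a pseudogene of the AKR1C cluster, 16 probe sets were measured, and 0 passed in limma. Of these, 0 had an unadjusted p under 0.05, against 6.2% of all probe sets. Groups were separated for 0, where in 5.95% of all probe sets the arrays labelled SCGB3A1 lay all above control and in 5.25% all below. AKR1C4, the liver enzyme of the cluster, read 6.21 ± 0.08 in the arrays labelled SCGB3A1 and 6.18 ± 0.05 in control (SD, n = 3 each). AKR1D1, a bile acid synthesis enzyme, differed by 0.09 (95% interval -0.08 to 0.27). AKR7A3, the near relative of AKR7A2, differed by 0.01 and 0.04 in its 2 probe sets. AKR1E2 spanned -0.29 to 0.07 over 3 probe sets, and the lowest rested on control replicate 2, without which it was -0.05. The potassium channel beta subunits KCNAB1, KCNAB2 and KCNAB3, which belong to the superfamily by structure, ran from -0.13 to 0.13. Mean levels lay below the median of all probe sets, 6.91, for AKR1C4, AKR1C6P, AKR1D1, KCNAB3, all of KCNAB1 and the dimmest of AKR1E2. These dim levels ran from 5.96 for AKR1D1 to 6.77 for KCNAB1. Differences of dim probe sets are compressed, so the absence of separated groups among them says little. The probe sets of AKR7A3 and KCNAB2 and the remaining ones of AKR1E2 were brighter, from 7.03 to 8.23.

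**Figure D4:**
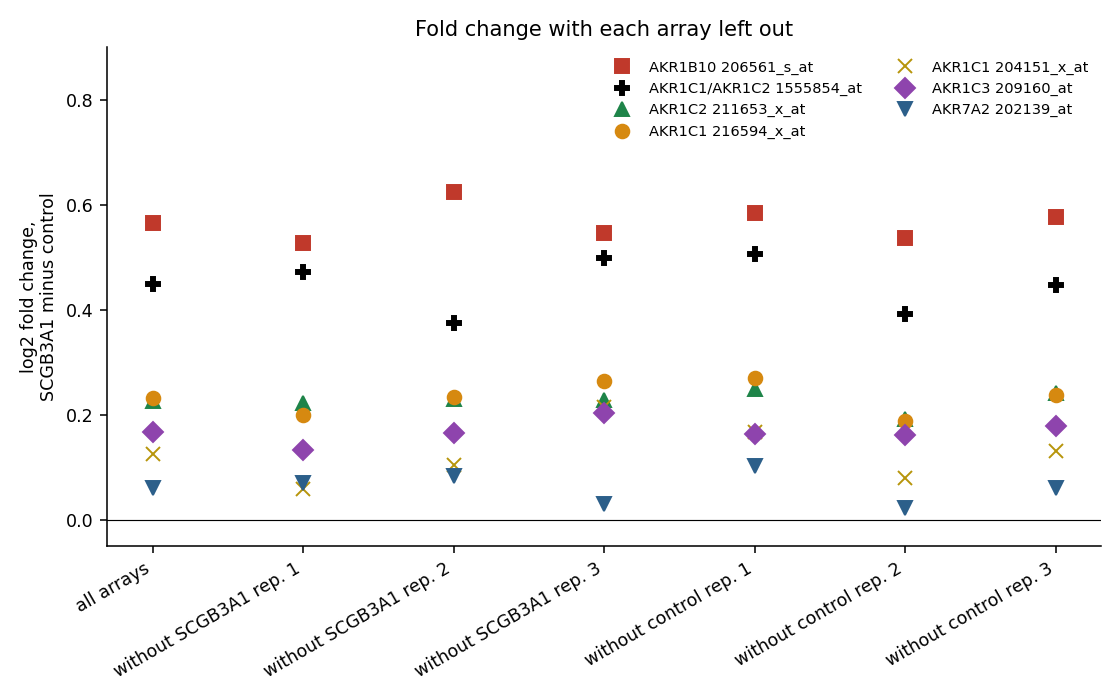
Log2 fold change, arrays labelled SCGB3A1 minus control (vertical axis), with all arrays and with each array left out (horizontal axis), for 7 aldo-keto reductase probe sets. Shown are the shared AKR1C1/AKR1C2 probe set, for each gene the one with the smallest p in limma, and the brightest of AKR1C1. AKR1B10 stays between 0.53 and 0.62 and AKR1C3 between 0.13 and 0.20, while AKR1C1 204151_x_at ranges from 0.06 to 0.21.

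Of 28 regulators and targets of NRF2 listed, 26 were measured by 56 probe sets. In limma 0 passed in either direction, and 1 had an unadjusted p under 0.05, against 6.2% of all probe sets. All arrays labelled SCGB3A1 lay above control for 5 and below for 1, against 5.95% and 5.25% of all probe sets. With 1 probe set per gene, 15 were positive and 11 negative, with a median of 0.03, where 51.0% of all probe sets were positive. NFE2L2, the gene of NRF2, differed by 0.08, or 0.03 without control replicate 1, and its inhibitor KEAP1 by -0.04. NQO1, a quinone reductase and classical target, read 13.14 ± 0.03 in the arrays labelled SCGB3A1 and 13.15 ± 0.03 in control (SD, n = 3 each). GCLM, a subunit of the enzyme that starts glutathione synthesis, differed by 0.18, with groups only 0.0087 apart, and by 0.10 without control replicate 3. SRXN1, which repairs peroxiredoxins, differed by 0.10, or 0.01 without control replicate 2 and 0.18 without replicate 3 labelled SCGB3A1. TXNRD1, thioredoxin reductase, differed by -0.09, the cystine transporter SLC7A11 by -0.05 and heme oxygenase HMOX1 by -0.03. Among genes chosen after their values were seen, the glutathione reductase GSR had the list's highest difference, 0.20, with overlapping groups, and separated groups were found for PGD, a pentose phosphate enzyme that makes NADPH (0.15), for the epoxide hydrolase EPHX1 (0.14) and, with arrays labelled SCGB3A1 below control, for the transporter ABCC3 (-0.08).

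Retinoid genes are given because AKR1B10 reduces retinaldehyde. Of 24 listed, 20 were measured by 48 probe sets, of which 0 passed in limma. An unadjusted p under 0.05 was found for 1, against 6.2% of all probe sets. All arrays labelled SCGB3A1 lay above control for 6 and below for 0, against 5.95% and 5.25% of all probe sets. With 1 probe set per gene, 16 were positive and 4 negative (median 0.07), where 51.0% of all probe sets were positive. ALDH1A3, which oxidises retinaldehyde to retinoic acid, differed by 0.18, the retinoic acid carrier CRABP2 by 0.14, the retinaldehyde reductase DHRS3 by 0.09 and the retinol dehydrogenase RDH10 by 0.01. Separated groups were found for 3 genes, namely CRABP2 and, named after their values were seen, the retinol carrier RBP4 (0.09) and its receptor STRA6 (0.13). RBP4 was dim, with a mean level of 6.55 and a gap of 0.03.

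Steroid and prostaglandin genes share substrates with the AKR1C enzymes. Of 29 listed, 27 were measured by 58 probe sets, of which 0 passed in limma, 8 had an unadjusted p under 0.05, 8 had all arrays labelled SCGB3A1 above control and 0 had all below. Over all probe sets these shares were 6.2%, 5.95% and 5.25%. With 1 probe set per gene, 18 were positive and 9 negative, with a median of 0.05, where 51.0% of all probe sets were positive. PTGES, prostaglandin E synthase, read 8.30 ± 0.06 in the arrays labelled SCGB3A1 and 8.03 ± 0.14 in control (SD, n = 3 each; difference 0.27). PTGS2, the inducible cyclooxygenase, read 8.24 ± 0.11 in the arrays labelled SCGB3A1 and 8.05 ± 0.02 in control (difference 0.19). For both the groups were separated. So were those of PTGDS, prostaglandin D synthase (0.29), and PTGS1, the constitutive cyclooxygenase (0.22), which were named after their values were seen. PTGR2, a prostaglandin reductase also named after its values were seen, was the list's lowest at -0.27, with overlapping groups. Its mean level of 6.73 lay below the median of all probe sets. The prostaglandin dehydrogenase HPGD differed by 0.03, the steroid 5-alpha-reductase SRD5A1 by -0.01 and HSD17B12 by -0.01.

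Other aldehyde and carbonyl enzymes numbered 28, of which 27 were measured by 54 probe sets. In limma 0 passed, 4 had an unadjusted p under 0.05, 2 had all arrays labelled SCGB3A1 above control and 4 all below. Over all probe sets these shares were 6.2%, 5.95% and 5.25%. The median was 0.08 with 1 probe set per gene and 0.01 over the 54 probe sets. Of the 54, 31 were positive and 23 negative, where 51.0% of all probe sets were positive, and they ran from -0.36 to 0.24. The carbonyl reductase CBR1, which is also in the prostaglandin list, differed by 0.13 with separated groups. Named after its values were seen, the glyoxalase pathway hydrolase HAGH differed by 0.23, also with separated groups. By 1 probe set per gene the list's extremes were ALDH1L1 (0.24) and ALDH4A1 (-0.15), neither with separated groups. ALDH2, the mitochondrial acetaldehyde dehydrogenase, differed by -0.13, with all arrays labelled SCGB3A1 below control. The groups were 0.07 apart, and its mean level of 6.60 lay below the median of all probe sets, 6.91. Glyoxalase GLO1 differed by 0.04, ADH5, the formaldehyde-clearing dehydrogenase, by -0.08 and ALDH3A2, a fatty aldehyde dehydrogenase, by -0.07.

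**Figure D5:**
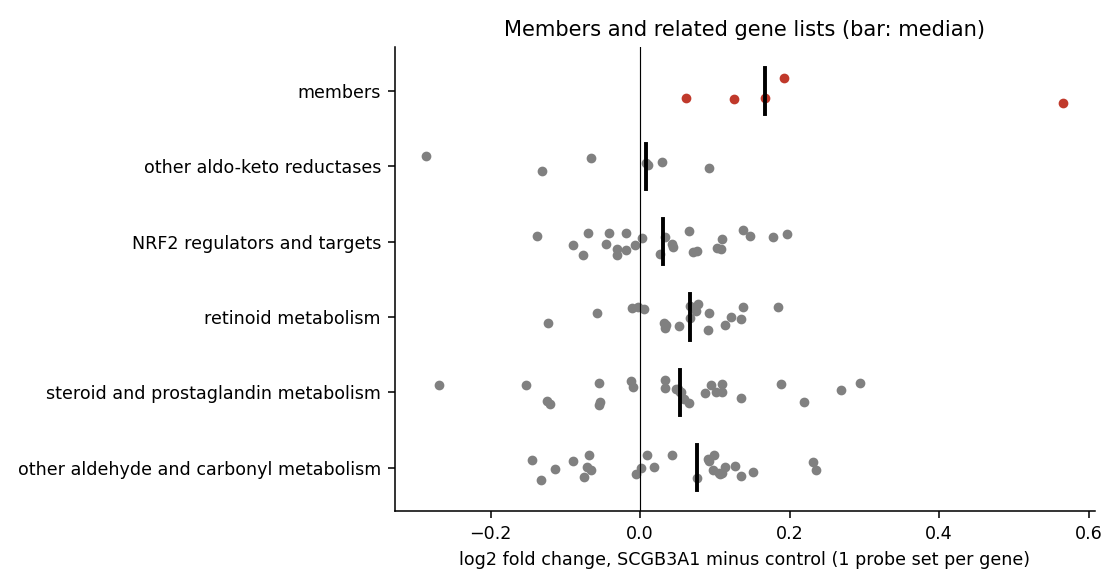
Each point is a measured gene, read by its probe set with the highest mean, placed by its log2 fold change between arrays labelled SCGB3A1 and control (horizontal axis), in the members (red) and 5 related lists (grey), with medians (black bars). The member median is 0.17, and those of the other lists run from 0.01 to 0.08.

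The genes most like AKR1B10 over the 6 arrays were sought among 12651 genes above the median level. Likeness was the root mean square difference between both profiles, each taken about its own mean. It was 0.083 for CLDN1, a tight junction protein, 0.090 for CCNG2, an atypical cyclin, 0.092 for PRKG1, a cGMP-dependent kinase, 0.10 for SLC7A7, an amino acid transporter subunit, and 0.10 for LAMB3, a laminin chain. The median over all genes compared was 0.30, close to the 0.29 by which AKR1B10 varied about its own mean. CLDN1, the nearest, read 9.15, 9.10 and 9.03 in the arrays labelled SCGB3A1, against 8.61, 8.57 and 8.49 in control. PRKG1 read 8.65, 8.53 and 8.65 in the arrays labelled SCGB3A1, against 8.22, 8.16 and 8.27 in control. SLC7A7 read 8.25, 8.17 and 8.26 in the arrays labelled SCGB3A1, against 7.89, 7.78 and 7.88 in control. In all of these the groups were separated. These genes were picked by their values in the same arrays, so their separation is a description.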

How the data were processed

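RNA from 6 oncosphere samples (100 ng each) was hybridised to Affymetrix Human Genome U133 Plus arrays, 1 sample per array. The authors normalized the scanner files by RMA, which corrects background, quantile normalizes and summarises probes, and deposited log2 values, which ran from 5.66 to 14.66. The arrays therefore share 1 distribution, and differences of dim genes are compressed. The table has no detection calls, and precision is limited by the number of arrays.

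Gene symbols came from the array's annotation in GEO and were compared with RefSeq (GRCh38.p14), which changed 0 of them. After 62 manufacturer controls were left out, 54613 probe sets were tested, of which 41091 had 1 symbol, 1801 several and 11721 none. Groups were compared with limma 3.58.1 (R 4.3.3; lmFit, eBayes, two-sided), as the methods' empirical Bayes test, with Benjamini-Hochberg adjustment over all probe sets. The fit was tested on simulated data. Named genes were all members, other aldo-keto reductases, list genes picked for their role, and the 5 profiles nearest to AKR1B10. Gene lists use the probe set with the highest mean per gene. Members and lists were chosen with earlier results of these data known. Alternatives were median centring, repeated quantile normalization, a variance trend, array weights, a replicate block, filters on probe sets, 1 probe set per gene, other thresholds and each array left out.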

Additional observations from a re-analysis of the deposited data

How the results depend on the processing

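Of 54613 probe sets, 10 passed an adjusted p of 0.05, and the count was 19 with an intensity trend, 16 with array weights, 6 without dim probe sets, 17 by the thresholds of the study signature (log2 fold change beyond 0.5, p under 0.05, adjusted p under 0.25), and 1 to 6 with 1 array left out. Among members the count was 1, and 0 without dim probe sets and in each fit with 1 array left out. AKR1B10 read 0.57 without dim probe sets (limma, adjusted p = 0.061) and 0.53 to 0.62 with 1 array left out; over all 14 alternatives its adjusted p ran from 0.020 to 0.36. The replicate block gave 4 probe sets, 0 members and 0.57 for AKR1B10 (adjusted p = 0.13). Same-numbered arrays deviated with correlations of 0.15, -0.14 and -0.09, and 2 of 6 arrays correlated best with their own number, so the numbers were not taken as pairs. The median over members was 0.12 to 0.21 with 1 array left out and 0.080 without _x_at probe sets. SCGB3A1 stayed negative, from -0.26 to -0.10. Directions of AKR1C1 (216594_x_at, 204151_x_at, 217626_at), AKR1C2 and AKR1C3 held in every alternative that kept them. AKR1C1 1555856_s_at and AKR7A2 214259_s_at, both near 0, changed sign in 4 and 2. In the related lists 0 probe sets passed under every alternative run.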
